A study of Mus musculus with 6 samples.

Results

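The E2F and retinoblastoma family was followed through 10 genes, E2f1 to E2f8, Rb1 and Rbl1, chosen by symbol from the deposited table. All 10 had a row among its 35932 genes and all 10 passed the filter on low counts, as did 13414 genes in all. The RNA came from bone marrow myeloid leukemic blasts of mice, genotype MLL-AF9+ in every library, and the 6 libraries formed 2 groups of 3. Chemotherapy-sensitive blasts carried the treatment label vehicule, and chemotherapy-resistant blasts the label Cytarabin+Doxorubicin, a nucleoside analog given with an anthracycline. Resistance and drug exposure thus cannot be told apart in these libraries. The sources used here give no strain, age, dose or time of harvest, and leave unsaid if each library is its own animal. The p-values therefore set the difference between groups only against the spread among these libraries, which may be technical.

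E2F proteins bind the promoters of genes for DNA replication and cell division. E2F1, E2F2 and E2F3 activate these genes in late G1, whereas E2F4 and E2F5 bind them in resting and early G1 cells together with the pocket proteins and keep them silent. The pocket proteins are RB1, RBL1 (p107) and RBL2 (p130), and phosphorylation by cyclin-dependent kinases releases E2F from them. E2F6 represses without pocket proteins, in a Polycomb complex, and the atypical E2F7 and E2F8 bind DNA without a DP partner and turn E2F targets, E2f1 among them, down again late in S phase. Several family genes, including E2f1, E2f2, E2f3, E2f7, E2f8 and Rbl1, are known E2F targets themselves, so promoter sequence is shown before the expression values.

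Promoter sequences, covering 250 bases before and 50 bases after a start site, came from RefSeq on GRCm38.p6. They matched 7 of the 10 members through 9 entries, with E2f2 and E2f3 at 2 entries each; none was matched for E2f4, E2f5 and Rb1. The E2F motif was searched on both strands as TTTCCCGC, TTTGGCGC, TTTGCCGC or TTTCGCGC, the cell cycle homology region (CHR, bound by the MuvB complex) as TTTGAA, and the CCAAT box as CCAAT. An E2F spelling was found in E2f2, E2f3, E2f7 and Rbl1, against 2.26% of all 32851 promoter entries. The CHR letters were found in E2f2, E2f3 and E2f8, against 17.9% of entries, and the CCAAT box in E2f2, E2f3, E2f7 and E2f8, against 37.4%. These percentages are per entry, so members with 2 entries had 2 chances of a match. In E2f2 the E2F spelling lay in the first entry, from base 40 after the start. Its CHR letters lay in the second entry, which is not printed below. In E2f1 and E2f6, with 1 entry each, none of these letters lay in the window. Other spellings and start sites outside these entries were not searched. The stretches below are read along the gene, 5′ to 3′, with E2F spellings and CHR letters in capitals on whichever strand they matched; no capitals overlap. They are shown for the 5 members with an E2F spelling or CHR letters, whatever their expression. Of these, 4 were lower in resistant blasts, where 20.8% of all genes tested were lower, and E2f3 did not pass the test. E2f1, with none of these letters in its window, was lower as well. A link between these letters and expression was not tested.
E2f7, chr10:110745215-110745274, plus strand, ending 165 bases before the start: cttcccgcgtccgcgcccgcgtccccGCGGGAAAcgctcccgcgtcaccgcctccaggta
E2f8, chr7:48881597-48881656, minus strand, ending at the base before the start: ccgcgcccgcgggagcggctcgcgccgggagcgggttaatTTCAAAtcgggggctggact
Rbl1, chr2:157204535-157204594, minus strand, ending at the base before the start: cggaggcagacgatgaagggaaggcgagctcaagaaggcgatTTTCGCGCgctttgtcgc
E2f2 (first of its entries), chr4:136172294-136172323, plus strand, bases 21 to 50 after the start: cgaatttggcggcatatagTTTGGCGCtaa
E2f3 (first of its entries), chr13:29986064-29986123, minus strand, ending at the base before the start: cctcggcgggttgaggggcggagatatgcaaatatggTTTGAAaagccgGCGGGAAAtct

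Resistant blasts held less mRNA of the activators E2f1 and E2f2, of both atypical repressors, E2f7 and E2f8, and of the pocket protein gene Rbl1, and more of the pocket-dependent repressors E2f4 and E2f5. In all, 5 of 10 members were lower, 2 were higher and 3 (E2f3, E2f6 and Rb1) did not pass. The threshold was 0.05 on the p-value of edgeR's quasi-likelihood test after Benjamini-Hochberg correction across the 13414 genes tested. Of these genes 39.2% passed, 18.5% as higher and 20.8% as lower. The changes of the 7 members were of 1.17-fold to 1.60-fold, and among all genes that passed, 63.9% changed by at most 1.5-fold. The members' median log2 fold change was -0.15, against -0.01 over all genes tested. In 7 of the 10 members the values of one group lay wholly apart from those of the other, as they did in 52.4% of all genes tested. The p-values and intervals come from bulk RNA, in which fewer cells of a type, or in a given cell cycle phase, and less RNA per cell cannot be told apart.

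**Figure D1:**
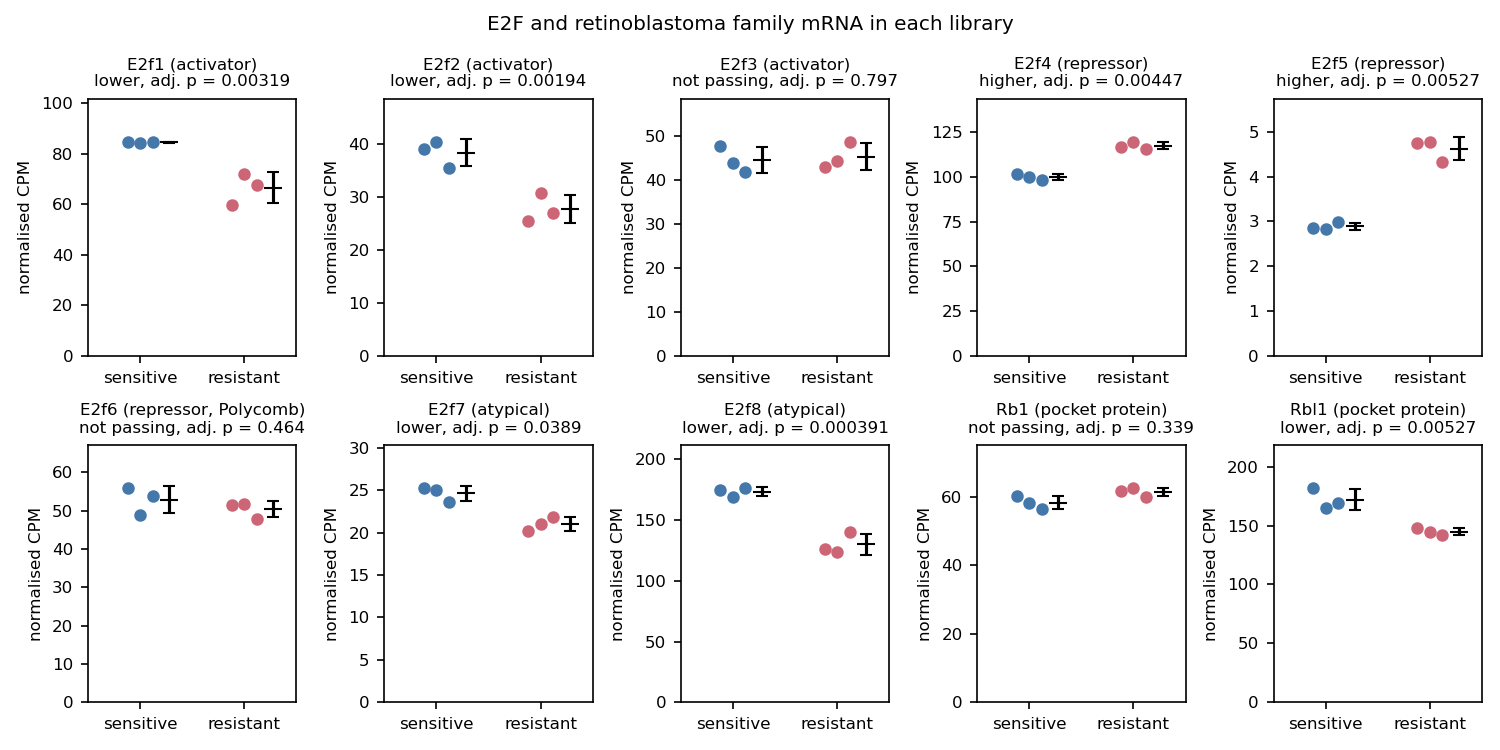
Normalised level (CPM) of each member in the 3 sensitive (blue) and 3 resistant (red) libraries, with the mean and SD beside the points; each panel has its own axis from 0. E2f1, E2f2, E2f7, E2f8 and Rbl1 lie lower and E2f4 and E2f5 higher in all 3 resistant libraries, while the points of E2f3 and E2f6 mix and those of Rb1 overlap.

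Among the activators, E2f1, which drives entry into S phase, stood at 84.7, 84.3 and 84.7 CPM (counts scaled to 1000000 per library after TMM normalisation) in sensitive libraries 1 to 3. In resistant libraries 1 to 3 it stood at 59.9, 72.0 and 67.6 CPM. The sensitive libraries were nearly equal, and the highest resistant value was below all of them. E2f1 fell from 84.6 ± 0.238 to 66.5 ± 6.16 CPM (SD, n = 3 per group), a change of -0.35 ± 0.07 (log2 fold change ± SE, as in all such pairs below; edgeR adjusted p = 0.00319). E2f2, an activator prominent in blood cells, had 39.1, 40.4 and 35.5 CPM in the sensitive libraries against 25.5, 30.6 and 26.9 CPM in the resistant ones. The groups did not overlap, and at -0.47 ± 0.09 (edgeR adjusted p = 0.00194) it showed the largest fall of the family. E2f3 was at 47.6, 43.7 and 41.8 CPM in the sensitive group, against 42.9, 44.2 and 48.6 CPM in the resistant group, with values that interleaved. Its log2 fold change of 0.03 had a 95% interval from -0.14 to 0.20 (edgeR adjusted p = 0.797), an interval that does not reach the fitted changes of E2f1 and E2f2. E2f3 is known to be read from alternative promoters that give E2F3a and E2F3b, and counts per gene do not separate these.

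The repressors that work with pocket proteins went the other way. E2f4, in many tissues the main E2F of resting cells, was at 101.8, 99.7 and 98.3 CPM in the sensitive group, against 116.9, 119.6 and 115.8 CPM in the resistant group. Each group spread over less than 4 CPM, and the groups lay well apart. The rise in E2f4 was 0.23 ± 0.05 (edgeR adjusted p = 0.00447). E2f5, its close relative, had few counts, 72 to 93 per library in sensitive and 105 to 151 in resistant blasts. Its values of 2.86, 2.82 and 2.98 against 4.76, 4.78 and 4.33 CPM did not overlap. The rise of 0.68 ± 0.15 (edgeR adjusted p = 0.00527), or 1.60-fold, was the largest relative change among the members, with a 95% interval from 0.35 to 1.01. In the later GENCODE M21 annotation 26 exon bases of E2f5 are shared with the opposite-strand gene 1810022K09Rik, which was at 4.70 ± 0.527 and 6.14 ± 0.771 CPM; the sources used here do not say whether the counting used strand, so reads of such opposite-strand pairs cannot be told apart. E2f6, the Polycomb-bound repressor, was at 55.8, 48.9 and 53.7 CPM in the sensitive group, against 51.4, 51.7 and 47.9 CPM in the resistant group. These values overlapped (log2 fold change -0.07, 95% interval -0.23 to 0.09, edgeR adjusted p = 0.464).

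Both atypical E2Fs were lower. E2f8, whose CHR-bearing promoter stretch is printed above, was at 174.9, 168.9 and 176.1 CPM in the sensitive group, against 126.3, 123.9 and 139.7 CPM in the resistant group. All 3 resistant libraries lay below all 3 sensitive ones. E2f8 had the smallest adjusted p of the family, at -0.42 ± 0.06 (edgeR adjusted p = 0.000391). E2f7 moved in the same direction by less, from 25.2, 25.1 and 23.5 CPM to 20.2, 21.0 and 21.8 CPM (log2 fold change -0.23 ± 0.08, edgeR adjusted p = 0.0389). The E2f7 groups did not overlap, but 8 of the 14 alternative settings put its adjusted p above the threshold: without sensitive library 1 (0.0989), 2 (0.123) or 3 (0.0591), without resistant library 1 (0.0995) or 2 (0.0653), with DESeq2 (0.0783), without a low-count filter (0.0862) and with a replicate block (0.0526). In M21, E2f8 shares 610 exon bases with the opposite-strand transcript Gm2788 and E2f7 shares 86 with 1700020G17Rik, and neither of these was analysed here.

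Of the pocket protein genes, Rbl1, encoding p107, was lower and Rb1 did not pass. Rbl1, itself an E2F target that accumulates in cycling cells, was at 181.6, 164.9 and 169.2 CPM in the sensitive group, against 147.6, 144.6 and 141.8 CPM in the resistant group. The groups were apart, and the difference was -0.25 ± 0.06 (edgeR adjusted p = 0.00527). Rb1, the founding tumour suppressor of the family, was at 60.3, 58.1 and 56.4 CPM in the sensitive group, against 61.7, 62.5 and 60.03 CPM in the resistant group. One sensitive value lay inside the range of the resistant ones, and the log2 fold change of 0.08 had a 95% interval from -0.05 to 0.21 (edgeR adjusted p = 0.339). Rb1 shares exon bases in M21 with the opposite-strand genes Lpar6 and Rcbtb2, which were at 24.9 ± 0.345 and 23.0 ± 0.773 CPM in the sensitive group, against 24.6 ± 2.66 and 21.0 ± 0.904 CPM in the resistant group. RBL2, the remaining pocket protein, is not among the 10 members; its gene Rbl2 was at 79.6 ± 4.07 and 73.6 ± 7.91 CPM and did not pass (-0.11 ± 0.08, edgeR adjusted p = 0.291). Only without resistant library 1, among 14 alternatives, did Rbl2 pass as lower (adjusted p = 0.0367).

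**Figure D2:**
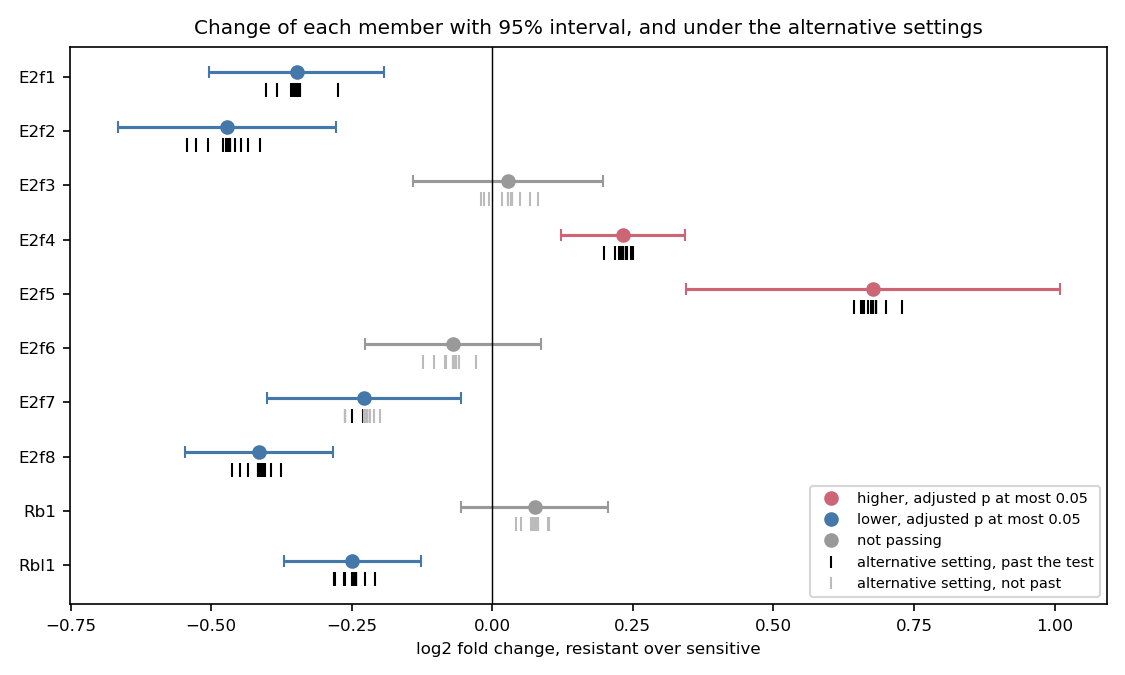
Log2 fold change of each member, resistant over sensitive, from the fit over all genes (circle, with 95% interval), and under 14 alternative settings (ticks; black where past an adjusted p of 0.05, grey where not). The ticks of E2f1, E2f2, E2f4, E2f5, E2f8 and Rbl1 are all black, those of E2f7 are mixed, and those of E2f3, E2f6 and Rb1 are all grey.

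Levels of different genes were compared per length, as CPM per kb of the union of a gene's exons in M21. In sensitive blasts E2f4 was highest at 40.8 ± 0.718, followed by E2f8 at 31.8 ± 0.706, Rbl1 at 28.7 ± 1.45 and E2f1 at 26.8 ± 0.0753 CPM per kb. No ranges of neighbours overlapped among these 4. Rb1, E2f6, E2f3 and E2f2 followed between 9.69 and 7.85 CPM per kb, each with a range that overlapped the next, and E2f7 at 2.73 and E2f5 at 1.62 closed the order. In resistant blasts E2f4 stood further above the rest at 47.9 ± 0.801 CPM per kb. Rbl1 at 24.1 ± 0.489 and E2f8 at 23.9 ± 1.57 overlapped each other, as did E2f8 and E2f1 at 21.1 ± 1.95. At the low end E2f5 at 2.59 and E2f7 at 2.33 CPM per kb stood in the reverse order to that in sensitive blasts. This order holds for the union of exons. With the median transcript length of each gene Rb1 ranked 1 and E2f4 ranked 2 in both groups. E2f7 then ranked 6 in sensitive and 5 in resistant blasts, and E2f5 ranked 10 in both. Neither the top place of E2f4 nor the reversal of E2f5 and E2f7 was thus kept. These medians are far shorter than the unions for Rb1 (409.5 against 6015 bases) and for E2f7 (827 against 9009 bases).

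The sum over the 8 E2F genes was 131.5, 127.8 and 128.0 CPM per kb in sensitive and 117.0, 122.9 and 122.1 CPM per kb in resistant libraries. The total was lower in all 3 resistant libraries. E2f4 made up 31.6%, 31.8% and 31.3% of the E2F sum in sensitive and 40.8%, 39.7% and 38.7% in resistant libraries. E2f8 went from 24.7% ± 0.525 to 19.8% ± 1.26 of the sum, and E2f1 from 20.8% ± 0.312 to 17.5% ± 1.18. By class, E2F4 and E2F5 together went from 32.8% ± 0.231 to 41.9% ± 1.19, the 3 activators from 33.2% ± 0.513 to 29.1% ± 1.47 and the 2 atypical genes from 26.8% ± 0.458 to 21.7% ± 1.30. These shares restate the member values on one scale and carry no test. They also depend on the length used: E2f7 has a union of 9009 exon bases but a median transcript of 827. With median transcript lengths the activators held 21.3% and 18.3%, the atypical genes 36.1% and 30.1%, of the E2F sum in sensitive and resistant blasts.

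Within a library, E2f1 stood at 0.647, 0.657 and 0.670 of the level of E2f4 per kb in sensitive and at 0.398, 0.468 and 0.454 in resistant blasts. The ratio of E2f8 to E2f4 went from 0.781 ± 0.0228 to 0.499 ± 0.0400, and that of Rbl1 to Rb1 from 2.96 ± 0.0973 to 2.36 ± 0.0386. Ratios within a library do not depend on how libraries are scaled, but their size depends on the gene lengths. With median transcript lengths the ratio of Rbl1 to Rb1 was 0.474 ± 0.0156 in sensitive and 0.378 ± 0.00619 in resistant blasts, which places Rb1 above Rbl1, that of E2f1 to E2f4 was 0.355 ± 0.00630 and 0.238 ± 0.0200, and that of E2f8 to E2f4 was 0.738 ± 0.0215 and 0.471 ± 0.0377. The fold change of a ratio between groups is the same with either length. None of these 3 ratios overlapped between the groups, but the ratios restate the member values and carry no test. For E2f1 and E2f8 over E2f4 this follows from members that already lay apart in opposite directions.

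**Figure D3:**
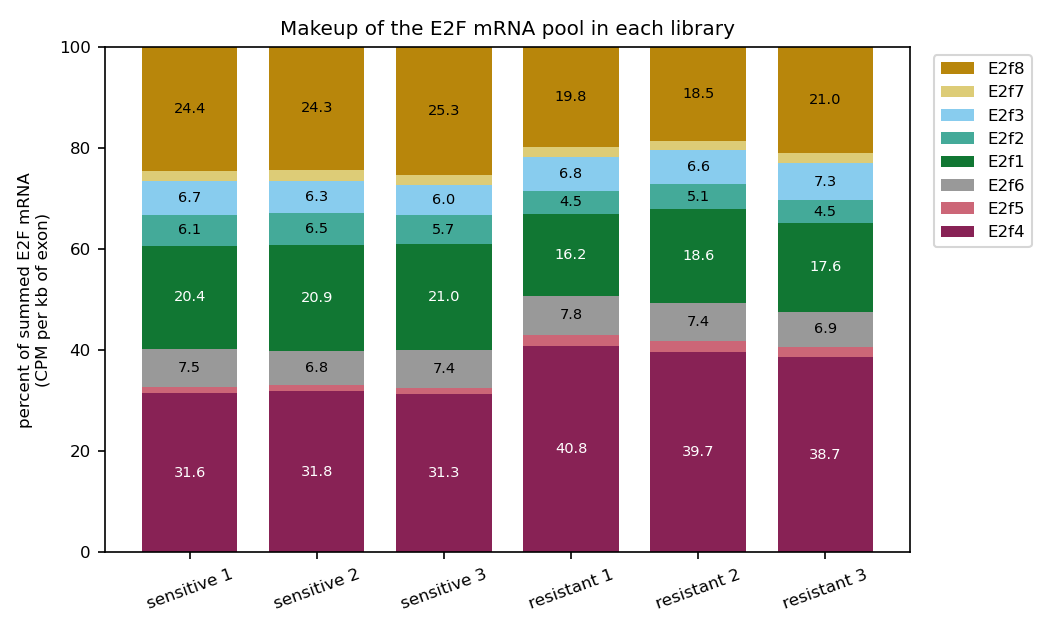
Share of each E2F gene in the summed E2F mRNA of each library, in percent, from CPM per kb of exon. The E2f4 segment widens from 31.3% to 31.8% in sensitive to 38.7% to 40.8% in resistant libraries, and the E2f1 and E2f8 segments narrow.

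The genes around the family were read from fixed lists, starting with the proteins E2Fs bind. Tfdp1, the main dimerisation partner (DP1), was lower, from 405.8 ± 11.5 to 363.1 ± 19.0 CPM (log2 fold change -0.16 ± 0.05, edgeR adjusted p = 0.0388), and Tfdp2 did not pass (-0.10 ± 0.10, adjusted p = 0.491). The call of Tfdp1 was lost without sensitive library 1 (0.109), 2 (0.119) or 3 (0.0609), without resistant library 1 (0.0626) or 3 (0.13), and without a low-count filter (0.0528). Of the 7 genes of the MuvB core, B-Myb and FoxM1, which join E2F4 with pocket proteins in the DREAM complex or replace them later in the cycle, 1 was lower and 6 did not pass (14.3% called, against 39.2% over all genes). Mybl2, encoding B-Myb, was the lower one, from 98.4 ± 4.40 to 86.3 ± 5.77 CPM (-0.19 ± 0.06, edgeR adjusted p = 0.0373), while Foxm1 was at 88.6 ± 4.26 and 87.6 ± 0.433 CPM (adjusted p = 0.85). Lin9, a scaffold of MuvB (0.15 ± 0.10, adjusted p = 0.232), and Lin54, its DNA-binding subunit (-0.24 ± 0.10, adjusted p = 0.0739), did not pass. Mybl2 lost its call without sensitive library 2 (0.115) or 3 (0.139), without resistant library 1 (0.105) or 2 (0.0979), and with upper quartile scaling (0.0534). Lin9 passed as higher without resistant library 2 (0.0318), and Lin54 as lower without resistant library 1 (0.0248) and with a replicate block (0.0192).

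Upstream of RB1, the G1 cyclins, their kinases and the inhibitors of those kinases held 2 higher, 4 lower and 8 not passing genes among 14 tested (42.9% called, near the 39.2% over all genes), with a median log2 fold change of -0.13; Cdkn2d was not analysed here. The largest change in the list was in Cdkn2c, the INK4 inhibitor p18 of CDK4 and CDK6. It stood at 75.4, 66.9 and 69.3 CPM in the sensitive group, against 15.5, 16.2 and 17.4 CPM in the resistant group, a 4.32-fold fall (log2 fold change -2.11 ± 0.08, edgeR adjusted p = 7.43e-08). Cdk6, a kinase that phosphorylates RB1, rose from 119.8 ± 5.45 to 162.3 ± 7.59 CPM (0.44 ± 0.06, adjusted p = 0.000246), whereas its relative Cdk4 was at 380.4 ± 6.23 and 373.9 ± 39.0 CPM (-0.03 ± 0.07, adjusted p = 0.805). Cdk2, the partner of cyclin E, fell by 0.28 ± 0.06 and Cdkn1b, encoding the inhibitor p27, by 0.31 ± 0.07. Cdkn2a, which encodes both p16 and p19ARF from overlapping exons, was higher, from 17.1 ± 1.67 to 25.6 ± 3.73 CPM (0.58 ± 0.12, edgeR adjusted p = 0.0036), and counts per gene do not separate its products. Among cyclins, Ccnd3 was lower (-0.23 ± 0.07, edgeR adjusted p = 0.0307), and Ccne1 (-0.04 ± 0.09) and Ccne2 (-0.22 ± 0.12) did not pass. Ccnd1 at 3.64 and 4.47 CPM and Ccnd2 at 0.541 and 0.357 CPM were low in both groups and did not pass, nor did Cdkn1a (0.12 ± 0.10, adjusted p = 0.335). Ccnd3 lost its call without sensitive library 1 (0.065), 2 (0.0544) or 3 (0.121) and without resistant library 1 (0.0926) or 3 (0.116).

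Most G1/S genes that E2Fs are known to switch on did not pass the test. Of 38 such targets, 32 did not pass, 5 were lower and 1 was higher, which is 15.8% called against 39.2% over all genes, and the median log2 fold change was -0.03. The 6 genes Mcm2 to Mcm7 of the replicative helicase, named after their values were seen, all failed to pass, with log2 fold changes from -0.05 to 0.09. Cdc45, which joins that helicase at the fork, was lower in resistant blasts, from 124.2 ± 1.99 to 94.6 ± 11.5 CPM (-0.39 ± 0.08, edgeR adjusted p = 0.00299). Ezh2, the Polycomb methyltransferase (-0.35 ± 0.08), Cdca7 (-0.26 ± 0.07) and the histone mRNA binding protein gene Slbp (-0.16 ± 0.05) were lower too. The remaining calls, also named after their values were seen, were Tk1 (-0.18) and, as the single higher gene, the DNA ligase gene Lig1 (0.18). The count of lower genes was 3 without sensitive library 1, 2 or 3 and 9 with library totals as scaling. The count of higher genes was 0 in 5 of the 6 fits that left out a library and also with upper quartile or library total scaling, and it was 3 without resistant library 1. Cdca7 lost its call without sensitive library 1 (0.0679). Slbp lost its own without a low-count filter (0.0633), without sensitive library 1 (0.119), 2 (0.0757) or 3 (0.067), and without resistant library 2 (0.102) or 3 (0.0667).

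Genes of the later G2/M program, which DREAM represses in resting cells and B-Myb and FoxM1 activate, held 12 lower, 0 higher and 16 not passing among 28 genes, with a median log2 fold change of -0.16. This is 42.9% called, all of them lower, where 39.2% of all genes were called and 20.8% were lower. Levels fell for Kif11, a mitotic spindle motor, from 268.6 ± 13.3 to 175.4 ± 9.34 CPM (-0.61 ± 0.06, edgeR adjusted p = 2.98e-05), for the spindle checkpoint kinase gene Bub1b from 193.8 ± 4.61 to 141.4 ± 1.73 CPM, and for Ube2c, a ubiquitin-conjugating enzyme of mitotic exit, from 119.1 ± 5.99 to 87.7 ± 5.16 CPM. Top2a, the topoisomerase of chromosome segregation, fell by 0.34 ± 0.05. Without sensitive library 2 the count of lower genes was 7, and without resistant library 2 there was 1 higher gene.

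**Figure D4:**
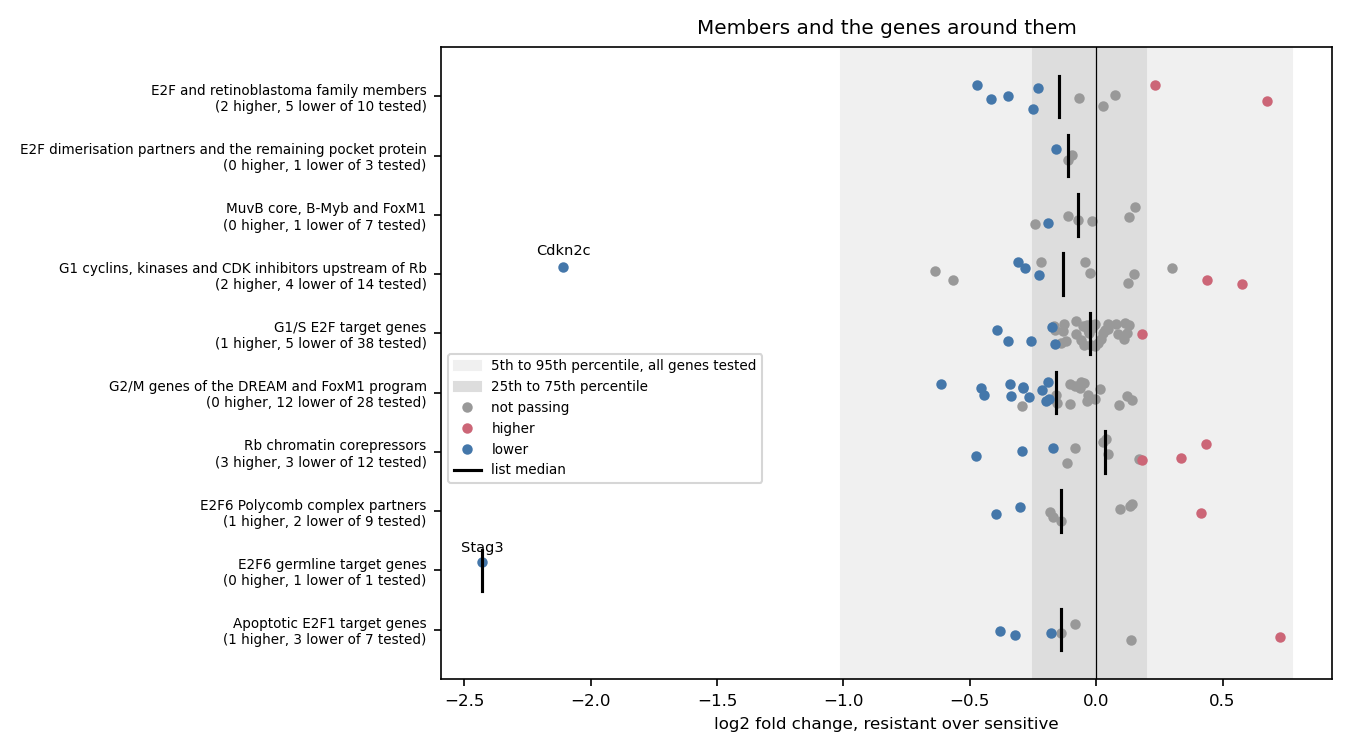
Log2 fold change of every tested gene in each list (points, red higher, blue lower, grey not passing; black bar, list median) against the 25th to 75th and 5th to 95th percentiles of all 13414 genes tested (grey bands, -0.25 to 0.20 and -1.01 to 0.77). Most G1/S targets cluster near 0, the G2/M genes extend to the left, and Cdkn2c at -2.11 and Stag3 at -2.43 lie outside the bands.

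Of 12 genes for chromatin proteins that RB family members recruit, 3 were higher, 3 were lower and 6 did not pass. These are 6 of 12 called, where 39.2% of all genes were called, 18.5% as higher and 20.8% as lower. Sin3b, the corepressor scaffold tied to E2F4 and pocket proteins in quiescence, was higher, from 143.3 ± 6.22 to 193.7 ± 4.40 CPM (0.43 ± 0.05, edgeR adjusted p = 0.000151). The histone-binding gene Rbbp7 (0.33 ± 0.06) and the remodeller ATPase gene Smarca4 (0.18 ± 0.05) were higher as well. Arid4a, first described as an RB-binding protein, was lower (-0.48 ± 0.09, edgeR adjusted p = 0.00168). The remaining lower genes, named after their values were seen, were Arid4b (-0.29 ± 0.08, edgeR adjusted p = 0.0149) and Sin3a. Sin3a, the paralog of Sin3b, thus went the other way (-0.17 ± 0.06, edgeR adjusted p = 0.0499). Smarca4 lost its call without sensitive library 2 (0.0728) or 3 (0.0597), and the count of lower genes was 1 without sensitive library 1, sensitive library 2 or resistant library 3.

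E2f6 works in a Polycomb complex, and of its 9 listed partners 1 was higher, 2 were lower and 6 did not pass (33.3% called, against 39.2% over all genes). The 2 paralogs that bridge RING proteins moved in opposite directions. Yaf2 rose from 52.5 ± 1.69 to 70.0 ± 2.54 CPM (0.41 ± 0.06, edgeR adjusted p = 0.000449), and Rybp fell from 38.3 ± 4.42 to 29.1 ± 0.593 CPM (-0.40 ± 0.09, edgeR adjusted p = 0.00526). Ring1 was lower by the same test (-0.30 ± 0.10, adjusted p = 0.0349), a call lost without sensitive library 1 (0.0734), 2 (0.0961) or 3 (0.0944) and without resistant library 1 (0.0903) or 3 (0.0679). The partner list counted 1 lower gene in each of those 5 fits, and 2 higher genes without resistant library 1.

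Of 5 germline genes that E2F6 is known to silence, only Stag3, a meiotic cohesin subunit gene, had enough counts to be tested. It stood at 4.37 ± 0.843 CPM in the sensitive group, against 0.803 ± 0.189 CPM in the resistant group (log2 fold change -2.43 ± 0.24, edgeR adjusted p = 3.59e-05), from 435 counts over all libraries. Smc1b had 1 count in all, Tuba3a and Tuba3b had 8 each, and Slc25a31 had 0 in every library, where 3 counts, the limit that a count of 0 allows, correspond to 0.0945 to 0.137 CPM; these limits cover counting error only. Tuba3a and Tuba3b are near-identical copies whose reads cannot be assigned with certainty.

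Apoptosis genes that E2F1 is known to induce held 1 higher, 3 lower and 3 not passing of 7 tested, or 57.1% called, where 39.2% of all genes were called and 20.8% were lower. Pmaip1, encoding NOXA, was the higher one, at 60.6 to 69.3 CPM in sensitive and 100.9 to 114.4 CPM in resistant blasts (0.73 ± 0.07, edgeR adjusted p = 3.94e-05). Among the lower ones were the initiator caspase gene Casp8 (-0.18 ± 0.06) and Bcl2l11, encoding BIM (-0.32 ± 0.09). The count of lower genes was 1 without sensitive library 2 or 3, where Casp8 (0.101 and 0.0635) and Bcl2l11 (0.0581 and 0.0681) lost their calls. Casp8 also lost its call without sensitive library 1 (0.0807) and without resistant library 1 (0.0753) or 2 (0.0666).

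By the root mean square difference of centred log2 CPM over the 6 libraries, among 10888 genes that averaged 50 counts or more, the pattern closest to that of E2f1 was shown by Tbc1d9b (0.0193), Stub1 (0.0205) and Pbxip1 (0.0225). Tbc1d9b, for example, was at 269.5, 265.4 and 264.1 CPM in the sensitive group, against 192.2, 228.6 and 220.0 CPM in the resistant group, with library 1 the lowest resistant one as for E2f1. Among the 3 genes closest to E2f8 were Gltp (0.0238) and Ccpg1 (0.0316).

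The libraries held 22206341 to 31856009 counts each and 17825 to 18654 genes with at least 1 count. The blast markers Ptprc, at 284.3 to 334.3 CPM over all libraries, and Mpo, at 1209 to 2058 CPM, were abundant, while the T cell marker Cd3e had 2 counts and Trac 1 count in all. The 10 myeloid blast markers summed to 4152 to 4680 CPM in sensitive and 3509 to 4152 CPM in resistant libraries. Of these, 2 were higher (Cd34 and Hoxa9) and 4 lower (Kit, Elane, Itgam and Cebpa), while 4, Ptprc and Mpo among them, did not pass. This is 60% called, where 39.2% of all genes were called. The largest change was in Cebpa, from 95.8 ± 6.10 to 25.3 ± 3.55 CPM. Among the lists for other cell types, all but the B cell list had sums that did not overlap between the groups. The T and NK cell sum was higher in resistant libraries and the other sums that lay apart were lower. The 9 erythroid markers summed to 46.7 to 81.7 CPM in sensitive and 1.10 to 2.96 CPM in resistant libraries. Of the 7 erythroid markers tested, 6 had 0 to 10 counts per resistant library and passed the low-count filter through the sensitive libraries, so that their being lower is a description only. The 10 mature neutrophil markers summed to 203.5 to 242.7 and 32.9 to 50.6 CPM (8 of 9 tested lower). Mmp8, among these 8, had 3 to 4 counts per resistant library and passed the low-count filter through the sensitive libraries. Its being lower is thus a description only. The 8 monocyte and macrophage markers summed to 1072 to 1152 and 595.8 to 689.3 CPM (5 of 8 lower). Of all genes tested, 20.8% were lower. The T and NK cell list summed to 49.9 to 68.1 and 71.3 to 98.3 CPM, nearly all of it Nkg7 (1 higher and 1 lower of 2 tested), the B cell list to 38.4 to 41.2 and 38.1 to 40.9 CPM, nearly all of it Cd79b, the megakaryocyte list to 9.49 to 10.6 and 5.89 to 7.03 CPM, and the endothelial and stromal list to 42.1 to 53.1 and 32.7 to 38.3 CPM, nearly all of it Pdgfrb. No marker gene was at 0 in all 6 libraries. The part of these cell types in the changes of the E2F and retinoblastoma genes was not tested.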

How the data were processed

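Whole-number counts per Ensembl gene were deposited by the authors, with no normalisation apparent. The submitters' processing notes name TopHat2, RSEM and the build mm9, without versions or roles; these sources give neither the annotation nor the strand setting, and do not say if RSEM estimates were rounded to make the numbers. All 6 count columns matched 1 sample each by title. Symbols (31636 of 35932 IDs matched) and exon lengths came from GENCODE M21, a later build, and promoters from RefSeq on GRCm38.p6; counts and tests use neither, whereas levels per kb, shares and ratios rest on the M21 exon lengths. After filterByExpr and TMM scaling, group was the sole term in glmQLFit and glmQLFTest (edgeR 4.0.16, R 4.3.3). The p-values of 13414 genes were corrected together by Benjamini-Hochberg, and 0.05 was the threshold. The SE is the log2 fold change divided by the root of F, and 95% intervals use the fit's degrees of freedom. This test was first run on simulated counts in which far fewer genes changed than were called here. Its error rate in data like these was thus not checked. Chi-square per degree of freedom was 3.92 to 13.6 for library pairs within a group and 37.5 to 63.2 between groups, so no library repeated another.

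The members and lists were chosen with earlier results of these data known. Named genes were the 10 members, 18 fixed pathway genes, up to 4 genes per list with the smallest adjusted p among those past the test, and the 3 genes most like E2f1 and like the member with the smallest adjusted p. Of the genes this rule names, 2 are not reported here. Log2 CPM for likeness used a prior count of 2. Alternatives were RLE, upper quartile and total scaling, no filter or a CPM filter, DESeq2 1.42.0, limma-voom (limma 3.58.1), a replicate block, and each library left out.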

Additional observations from a re-analysis of the deposited data

How the results depend on the processing

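Over 14 alternatives the 2 higher members (E2f4, E2f5) and 4 of the 5 lower ones (E2f1, E2f2, E2f8, Rbl1) passed each time, and E2f3, E2f6 and Rb1 passed in none; E2f7 was the exception, as given with its values. The count of lower members ranged from 4 to 5 and that of higher members was 2 when a library was left out, and genes called over the table ranged from 3656 to 5232. E2f3 changed sign with library totals (-0.00544) and ranged from -0.0192 to 0.0816 with a library left out. Log2 fold changes that then also crossed 0 were those of Tfdp2 (-0.17 to 0.0247), Foxm1 (-0.0424 to 0.0221), Ccne1 (-0.117 to 0.0199) and Cdk4 (-0.0773 to 0.0589). Same-numbered libraries did not deviate together (r = 0.04, -0.01 and -0.09), so the numbers were not taken as pairs; the replicate block gave 5321 calls in place of 5260, 4 lower members and 2 lower genes of the MuvB, B-Myb and FoxM1 list.

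List counts moved as follows. The dimerisation partner list had 0 lower without a filter and 0 to 1 with a library left out. The MuvB, B-Myb and FoxM1 list had 0 lower with upper quartile scaling, and 0 to 1 lower and 0 to 1 higher with a library left out. G1/S targets had 0 higher with upper quartile scaling, 0 higher and 9 lower with library totals, and 0 to 3 higher and 3 to 6 lower with a library left out. G2/M genes then had 7 to 13 lower and 0 to 1 higher, corepressors 1 to 3 lower, E2F6 partners 1 to 2 higher and 1 to 2 lower, and apoptotic targets 1 to 3 lower. With median transcript lengths the shares of the E2F sum in sensitive and resistant blasts were 21.3% and 18.3% for activators, 36.1% and 30.1% for atypical genes and 8.60% and 8.74% for E2f6, and 34.0% for E2f4 with E2f5 in sensitive blasts. These shares differ from those given earlier only in the length used. The cause of the shifts in list counts was not tested. At 72 to 151 counts per library, E2f5 is the member that depth limits most.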
